A study of Homo sapiens with 11 samples.

Results

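Immediate early transcription factors are 10 of the 27671 genes in the count table, taken by symbol: FOS, FOSB, JUN, JUNB, EGR1, EGR2, EGR3, IER2, MYC and KLF10. They were chosen because, as a list, they were higher in cells given the compound A8 together with ISRIB than in cells given A8 alone. That contrast is therefore described here with its values and without a test. All 10 passed the filter on low counts that left 15591 genes for testing.

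Immediate early genes are transcribed within minutes of a growth factor, stress or calcium signal, with no need for new protein synthesis. Kinases such as ERK act on transcription factors already bound to the promoters, among them SRF with its ELK partners at CArG boxes and CREB at cAMP response elements. FOS and FOSB pair with JUN and JUNB to form AP-1, EGR1, EGR2 and EGR3 are zinc finger proteins that bind GC-rich sites, and IER2 is a small nuclear protein. MYC pairs with MAX and drives growth genes, while KLF10 is a repressor first described as a gene induced by TGF-beta. Their mRNAs usually last a short time, in many cases because AU-rich elements mark them for decay.

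RNA was measured in HEK293T cells, a human embryonic kidney line with the SV40 large T antigen. Cells received A8 at 10 µM with ISRIB (n = 3), A8 at 10 µM alone (n = 3), ISRIB with DMSO (n = 2) or DMSO as vehicle (n = 3). ISRIB is a small molecule that restores eIF2B activity when eIF2 is phosphorylated, and its concentration is not given in the labels. The sample titles give 8 h of treatment and the treatment protocol gives 4 h. The growth protocol names HEK293 cells, so the line is called HEK293T after the cell line label. The design text calls the replicates biological, and the labels say that replicate 2 of the ISRIB group was excluded for poor quality. The libraries of the ISRIB group are called a and b, because their column numbers and titles differ.

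Totals per library were 34072107 to 35318111 counts, and a gene listed at 0 could still be present at as much as 0.0880 CPM (counts scaled to a common TMM library size, the unit of all levels below), taken as 3 counts. VIM, NEFL and NEFM, which HEK293 cells are known to express, lay at 630 to 755, 63.5 to 76.7 and 59.8 to 74.3 CPM, and the kidney factor PAX2 had 34 to 75 counts per library. Of 8 markers of other cell types, PTPRC, CD3E, HBB and PECAM1 had 0 counts in every library, ALB had 0 to 8, EPCAM 5 to 29, COL3A1 14 to 40 and COL1A1 540 to 753 (15.7 to 21.2 CPM). CHAC1, a gene of the integrated stress response, averaged 4.11 ± 0.22 CPM in A8 with ISRIB, 17.0 ± 3.66 in A8, 2.67 ± 0.462 in ISRIB and 5.22 ± 0.514 in vehicle cells (SD). In bulk RNA, a change in the number of cells that express a gene and a change in the RNA per cell cannot be told apart.

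The sequence just upstream of the start site shows which of a few searched textbook elements of early induction these genes carry within that stretch. It is printed for 4 of them, because the results below turn on JUN, JUNB and EGR1 and because FOS is the classical member. RefSeq promoters of GRCh38.p14 were at hand for 7 of the 10 members (EGR2 with 3 start sites, so 9 promoters). Each stretch is the 250 bases before the start, written along the gene's strand. JUN is at chr1:58784048-58784297 on the minus strand, JUNB at chr19:12791236-12791485 on the plus strand, EGR1 at chr5:138465229-138465478 on the plus strand and FOS at chr14:75278578-75278827 on the plus strand. Capitals mark TGACG, the core of the cAMP response element, on either strand, and CArG boxes.
JUN: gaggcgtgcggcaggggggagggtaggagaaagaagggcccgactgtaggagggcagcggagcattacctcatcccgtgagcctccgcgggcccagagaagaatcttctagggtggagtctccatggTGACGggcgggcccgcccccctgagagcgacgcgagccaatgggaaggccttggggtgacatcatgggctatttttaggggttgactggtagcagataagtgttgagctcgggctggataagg
JUNB: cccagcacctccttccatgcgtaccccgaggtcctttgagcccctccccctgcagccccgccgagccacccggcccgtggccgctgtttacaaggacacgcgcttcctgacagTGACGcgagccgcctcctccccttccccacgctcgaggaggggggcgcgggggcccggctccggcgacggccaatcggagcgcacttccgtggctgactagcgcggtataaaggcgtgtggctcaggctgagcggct
EGR1: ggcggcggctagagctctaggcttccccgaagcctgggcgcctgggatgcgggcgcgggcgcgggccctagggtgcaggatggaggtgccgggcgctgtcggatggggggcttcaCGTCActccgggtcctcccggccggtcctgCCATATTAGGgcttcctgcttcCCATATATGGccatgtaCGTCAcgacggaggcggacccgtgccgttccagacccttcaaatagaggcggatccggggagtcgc
FOS: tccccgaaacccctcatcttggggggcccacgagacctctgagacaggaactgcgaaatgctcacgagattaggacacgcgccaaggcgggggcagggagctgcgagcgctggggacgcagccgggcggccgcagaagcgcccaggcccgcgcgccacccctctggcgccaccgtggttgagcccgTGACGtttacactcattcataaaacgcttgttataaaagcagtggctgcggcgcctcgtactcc

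TGACG, read on both strands, was present in 7 of the 7 genes and in 7 of their 9 promoters, against 21.2% of all 35116 RefSeq promoters of the same length. Within these 250 bases CArG boxes were found in EGR1 and EGR2, against 1.16% of all promoters. Bases further upstream were not searched, so an element there, in FOS or another member, would be missed. TATAA was found in FOS, FOSB and JUNB (18.9% of all promoters). Neither the full palindrome TGACGTCA, which contains TGACG, nor the AP-1 motif TGANTCA was in any of the 9 (1.65% and 6.57% of all promoters). Only exact matches were searched. The printed JUN stretch holds tgacatca, which differs from TGACGTCA in a single base, and such variants were not counted or marked. Counted from the start site, the TGACG match of FOS lay at -64 to -60, that of JUN at -123 to -119 and that of JUNB at -137 to -133. A match is a description of letters in these windows, not a site in use.

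**Figure D1:**
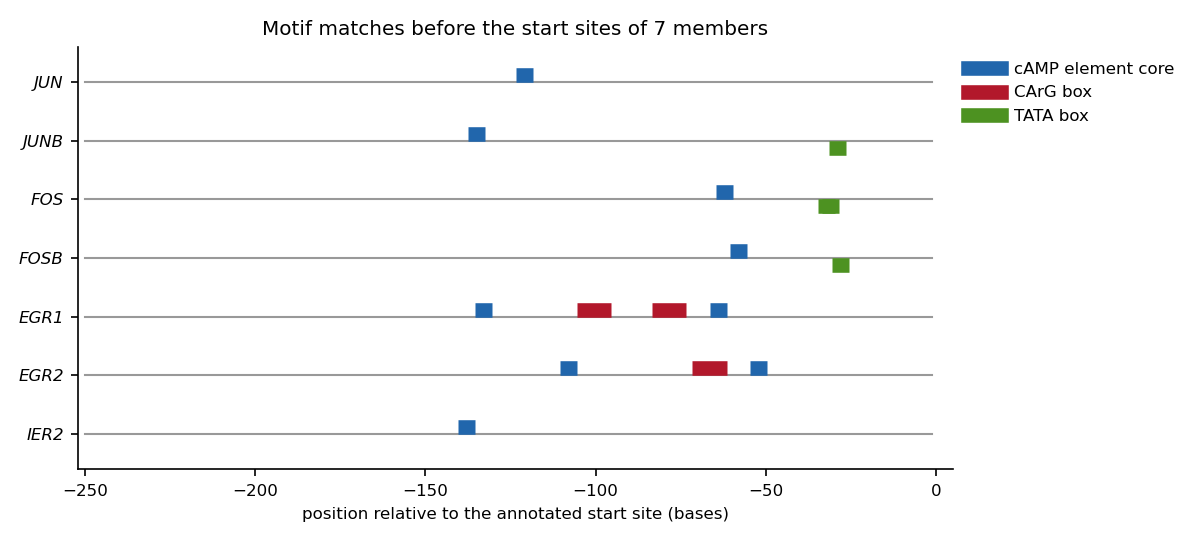
Motif matches in the 250 bases upstream of the RefSeq start of 7 members, with distance from the start site in bases on the horizontal axis and 1 row per gene. TGACG is marked in all 7 genes, CArG boxes in EGR1 and EGR2, and TATAA in FOS, FOSB and JUNB.

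The 10 genes did not move as a block. In A8 with ISRIB against A8, 8 of the 10 had a log2 fold change above 0, as did 49.7% of all genes tested, and the median over the members was 0.10 against -0.00085 for all genes. JUN and JUNB were the 2 members whose libraries did not overlap between those groups, both higher with ISRIB, and 5.09% of all genes were higher without overlap. The edgeR fit called 0.18% of all genes in this contrast, and calls of members are not counted. Since the list was chosen on this contrast, nothing is read from these counts. Over the 11 libraries the members' mean of centred log2 CPM ranged from -0.11 in A8 library 3 to 0.09 in vehicle library 2. In vehicle library 2 EGR1 was at 1.02, while the members' median was -0.04 and 4 of the 10 were above their own mean. By median the libraries of A8 with ISRIB were the highest, at 0.13, 0.16 and 0.14, and they are part of the contrast that chose the list. Across the 45 pairs of members, Pearson's r of log2 CPM over the 11 libraries had a median of -0.02, and 21 pairs were positive. The pairs ranged from -0.70 for JUN with EGR1 to 0.75 for MYC with KLF10, as a description over libraries that share their groups.

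**Figure D2:**
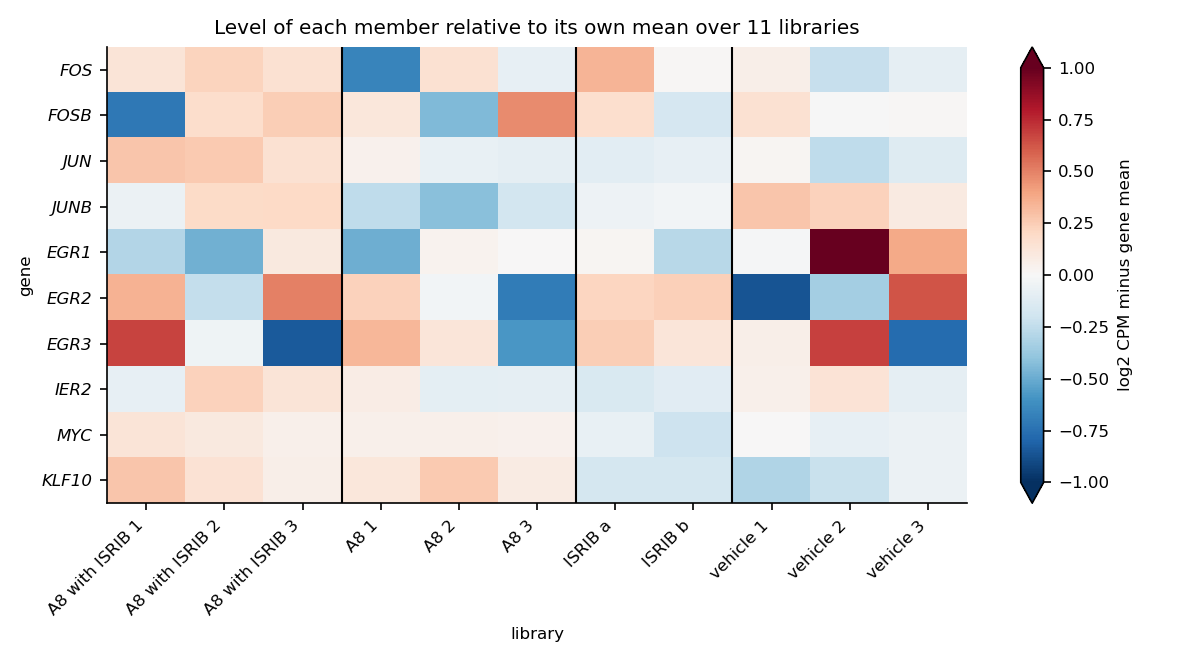
Log2 CPM of each of the 10 members minus that gene's mean over the 11 libraries, with members in rows and libraries in columns, on a colour scale that ends at 1 in either direction. JUN is high in libraries of A8 with ISRIB, and MYC and KLF10 are high in libraries with A8, with or without ISRIB. JUNB is low in libraries of A8 alone, and EGR1 is highest in vehicle library 2.

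JUN, the AP-1 subunit that can pair with itself or with FOS proteins, was at 429, 423 and 392 CPM in A8 with ISRIB, 364, 336 and 332 CPM in A8, 328 and 333 CPM in ISRIB, and 357, 296 and 323 CPM in vehicle cells. All 3 libraries of A8 with ISRIB were above the other 8, and the share of all genes for which this held was not counted. Group by group, 5.09% of all genes were higher without overlap against A8, 12.8% against ISRIB and 5.79% against vehicle. The means were 415 ± 19.5 CPM in A8 with ISRIB, 344 ± 17.5 in A8, 331 ± 3.39 in ISRIB and 325 ± 30.9 in vehicle (SD), and the last 3 groups overlapped. The log2 fold change was 0.27 (SE 0.07) for A8 with ISRIB against A8, given as the value that helped to choose the gene. Against ISRIB it was 0.33 (SE 0.08) with an adjusted p of 0.253, and against vehicle 0.35 (SE 0.07) with an adjusted p of 0.197, in edgeR's quasi-likelihood test with Benjamini-Hochberg adjustment over all genes. These comparisons share the libraries of A8 with ISRIB with the choice of the list and are not independent of it. The difference from vehicle passed the threshold of 0.05 when vehicle library 1 was left out (edgeR adjusted p = 0.0399).

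JUN differed from vehicle by a log2 fold change of 0.08 (SE 0.07) in A8 alone and 0.02 (SE 0.08) in ISRIB alone. The 95% intervals were -0.07 to 0.23 for A8 and -0.14 to 0.19 for ISRIB. The interaction, the effect of A8 with ISRIB present minus its effect without ISRIB, was 0.24 (SE 0.10, edgeR adjusted p = 0.557).

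JUNB, an AP-1 subunit that often restrains JUN, had 16.3, 19.4 and 19.6 CPM in A8 with ISRIB, 14.3, 12.7 and 15.01 CPM in A8, 16.5 and 16.7 CPM in ISRIB, and 20.7, 20.0 and 18.1 CPM in vehicle cells. The 3 A8 libraries were the lowest of the 11, and the share of all genes for which this held was not counted. Of all genes, 8.13% were lower without overlap in A8 against vehicle and 5.09% were higher in A8 with ISRIB against A8. A8 with ISRIB at 18.4 ± 1.83 CPM overlapped with ISRIB at 16.6 ± 0.164 CPM and with vehicle at 19.6 ± 1.32 CPM, while A8 at 14.0 ± 1.19 CPM overlapped with none (SD). In A8 against vehicle the log2 fold change was -0.49 (SE 0.10, 95% interval -0.69 to -0.28), and its adjusted p of 0.0673 in edgeR missed the threshold. It passed without library 1 of A8 with ISRIB (edgeR adjusted p = 0.0400) and without library 3 (0.0373), which enter through the shared estimate of spread. The authors' deposited table for the same contrast gives -0.49 with an adjusted p of 0.0258.

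ISRIB alone also had less JUNB than vehicle in every library, with a log2 fold change of -0.24 (SE 0.11, edgeR adjusted p = 0.509). A8 with ISRIB against A8, which chose the list, was 0.40 (SE 0.10). For the interaction the value was 0.64 (SE 0.15, 95% interval 0.33 to 0.95, edgeR adjusted p = 0.251).

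Base composition moved with these values. JUNB transcripts had a GC content of 64.9%, the highest of the members, whose median was 54.6% against 48.7% for all genes tested with a value. Across 13688 genes of the same libraries, Spearman's rho of log2 fold change with GC content was -0.47 for ISRIB against vehicle, -0.29 for A8 against vehicle and 0.45 for the interaction. With a GC offset in the fit, JUNB was at -0.08 in ISRIB against vehicle (edgeR adjusted p = 0.974), -0.38 in A8 against vehicle (0.0997) and 0.42 for the interaction (0.764). JUN in A8 with ISRIB against A8 was at 0.26 with the offset. The part of base composition in these values was not otherwise tested.

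FOS, the subunit that gives AP-1 its classical dimer with JUN, rested on few counts. It had 2.37, 2.52 and 2.41 CPM in A8 with ISRIB, 1.34, 2.40 and 2.03 CPM in A8, 2.74 and 2.18 CPM in ISRIB, and 2.25, 1.83 and 2.02 CPM in vehicle cells, on 46 to 95 counts per library. A8 with ISRIB lay above vehicle without overlap, and the other groups overlapped. Its log2 fold change was 0.34 (SE 0.21) in A8 with ISRIB against A8, where library 1 of A8 was the lowest, and 0.27 (SE 0.23, edgeR adjusted p = 0.721) in ISRIB against vehicle.

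FOSB, which can replace FOS in the dimer, had 0.613, 1.19 and 1.25 CPM in A8 with ISRIB, 1.14, 0.753 and 1.47 CPM in A8, 1.18 and 0.923 CPM in ISRIB, and 1.17, 1.04 and 1.05 CPM in vehicle cells. It rested on 22 to 50 counts per library, and all groups overlapped. In A8 with ISRIB against A8 it was one of the members below 0, at -0.14 (SE 0.31).

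**Figure D3:**
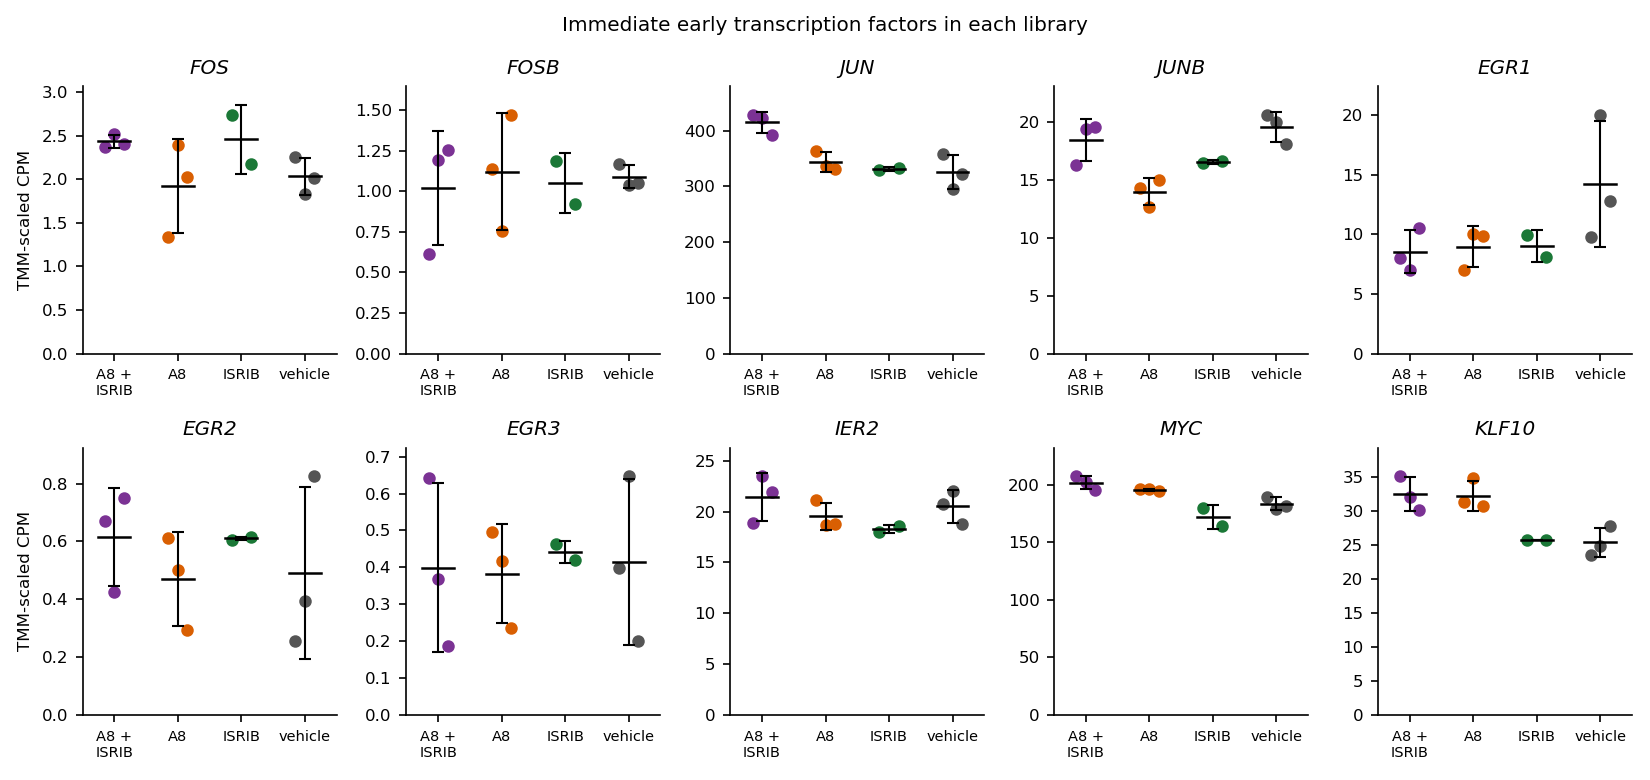
TMM-scaled CPM of each of the 10 members in every library (points) with the group mean and SD (bars), 1 panel per gene, in the order A8 with ISRIB, A8, ISRIB and vehicle. JUN is highest in A8 with ISRIB, at 392 to 429 CPM, and vehicle library 2 stands at 20.1 CPM in the panel of EGR1.

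EGR1, the zinc finger factor most often used as a readout of ERK activity, had 8.03, 7.03 and 10.6 CPM in A8 with ISRIB, 6.996, 10.1 and 9.86 CPM in A8, 9.99 and 8.11 CPM in ISRIB, and 9.79, 20.1 and 12.8 CPM in vehicle cells. Only vehicle libraries 2 and 3 were above the other 9. The mean was 8.54 ± 1.81 CPM in A8 with ISRIB, 8.98 ± 1.72 in A8, 9.05 ± 1.33 in ISRIB and 14.2 ± 5.27 in vehicle (SD). Log2 fold changes against vehicle were -0.74 (SE 0.22) for A8 with ISRIB, -0.66 (SE 0.21) for A8 and -0.65 (SE 0.24) for ISRIB, with edgeR adjusted p of 0.392, 0.285 and 0.454. The 3 comparisons share their vehicle libraries. Without vehicle library 2 they were -0.41, -0.33 and -0.32, with edgeR adjusted p of 0.779, 0.669 and 0.685. Between A8 with ISRIB and A8, EGR1 differed by -0.08 (SE 0.22).

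EGR2 and EGR3, relatives of EGR1 known from nerve and immune cells, rested on the fewest counts of the members. EGR2 had 0.669, 0.425 and 0.751 CPM in A8 with ISRIB, 0.612, 0.502 and 0.294 CPM in A8, 0.606 and 0.615 CPM in ISRIB, and 0.257, 0.394 and 0.826 CPM in vehicle cells, on 9 to 29 counts. EGR3 had 0.641, 0.369 and 0.188 CPM in A8 with ISRIB, 0.496, 0.418 and 0.235 CPM in A8, 0.462 and 0.419 CPM in ISRIB, and 0.399, 0.647 and 0.199 CPM in vehicle cells, on 6 to 23 counts. All groups overlapped for both genes, and no difference was detectable at this depth. Their log2 fold changes in A8 with ISRIB against A8, 0.38 (SE 0.44) and 0.07 (SE 0.51), count among the 8 above 0.

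IER2, a nuclear protein that acts as a transcriptional cofactor, had 18.8, 23.5 and 21.9 CPM in A8 with ISRIB, 21.1, 18.7 and 18.8 CPM in A8, 18.0 and 18.5 CPM in ISRIB, and 20.7, 22.0 and 18.8 CPM in vehicle cells. Both ISRIB libraries were below all other libraries, and the share of all genes for which this held was not counted. Of all genes, 15.1% were lower without overlap in ISRIB against vehicle and 12.8% were higher in A8 with ISRIB against ISRIB. The log2 fold change of IER2 was 0.13 (SE 0.10) in A8 with ISRIB against A8, 0.23 (SE 0.11, edgeR adjusted p = 0.609) against ISRIB and -0.17 (SE 0.11, edgeR adjusted p = 0.644) in ISRIB against vehicle. Its transcript had a GC content of 61.7%, and with the GC offset the value was -0.0455 in ISRIB against vehicle (edgeR adjusted p = 0.991), 0.14 in A8 with ISRIB against ISRIB (0.838) and 0.15 for the interaction (0.9998), which was 0.30 (SE 0.15, 0.613) without the offset.

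MYC had 207, 202 and 196 CPM in A8 with ISRIB, 196, 196 and 195 CPM in A8, 179 and 164 CPM in ISRIB, and 189.7, 179 and 182 CPM in vehicle cells. The 6 libraries with A8 were at 195 to 207 CPM (median 196) and the 5 without it at 164 to 189.7 CPM (median 179), with no overlap. The value between A8 with ISRIB and A8 was 0.04 (SE 0.06) on the log2 scale. Against ISRIB it was 0.23 (SE 0.06, edgeR adjusted p = 0.323), and A8 against vehicle gave 0.09 (SE 0.06, edgeR adjusted p = 0.604).

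KLF10 had 35.1, 32.0 and 30.2 CPM in A8 with ISRIB, 31.3, 34.8 and 30.7 CPM in A8, 25.7 and 25.7 CPM in ISRIB, and 23.5, 24.9 and 27.8 CPM in vehicle cells. All 6 libraries with A8, at 30.2 to 35.1 CPM (median 31.7), were above the 5 without it, at 23.5 to 27.8 CPM (median 25.7). With and without ISRIB the levels were close, and A8 with ISRIB against A8 was 0.01 (SE 0.09). Set against vehicle, KLF10 was at 0.35 (SE 0.09, edgeR adjusted p = 0.348) in A8 with ISRIB and at 0.35 (SE 0.09, 95% interval 0.16 to 0.53, edgeR adjusted p = 0.161) in A8. The authors' deposited table gives 0.36 with an adjusted p of 0.0236 and 0.35 with 0.00706 for these contrasts. ISRIB against vehicle gave 0.02 (SE 0.10).

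Because the choice of the list used the difference between A8 with ISRIB and A8, the mean of the A8 effects with and without ISRIB was added after seeing the data. With 3 libraries in each A8 group, it does not use that difference. On this average A8 effect 5 of the 10 members had an unadjusted p under 0.05 in edgeR (9.81% of all genes), and 1 of the 10 members was called in edgeR at an adjusted p under 0.05, against 0.237% of all genes. This was KLF10, higher at a log2 fold change of 0.34 (SE 0.07, 95% interval 0.20 to 0.48, adjusted p = 0.0476) and in 6 of 6 libraries above all 5 without A8. KLF10 and MYC were the members higher without overlap, as were 0.622% of all genes. Leaving out each of the 11 libraries in turn, the call on KLF10 held in edgeR without library 3 of A8 with ISRIB or library 3 of vehicle and was lost without any of the other 9, while the log2 fold change stayed between 0.31 and 0.38 and the adjusted p between 0.0138 and 0.251. The average effect was 0.20 (SE 0.05, edgeR adjusted p = 0.154) for JUN, 0.16 (SE 0.04, 0.162) for MYC, -0.17 (SE 0.07, 0.465) for JUNB and -0.38 (SE 0.16, 0.448) for EGR1.

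**Figure D4:**
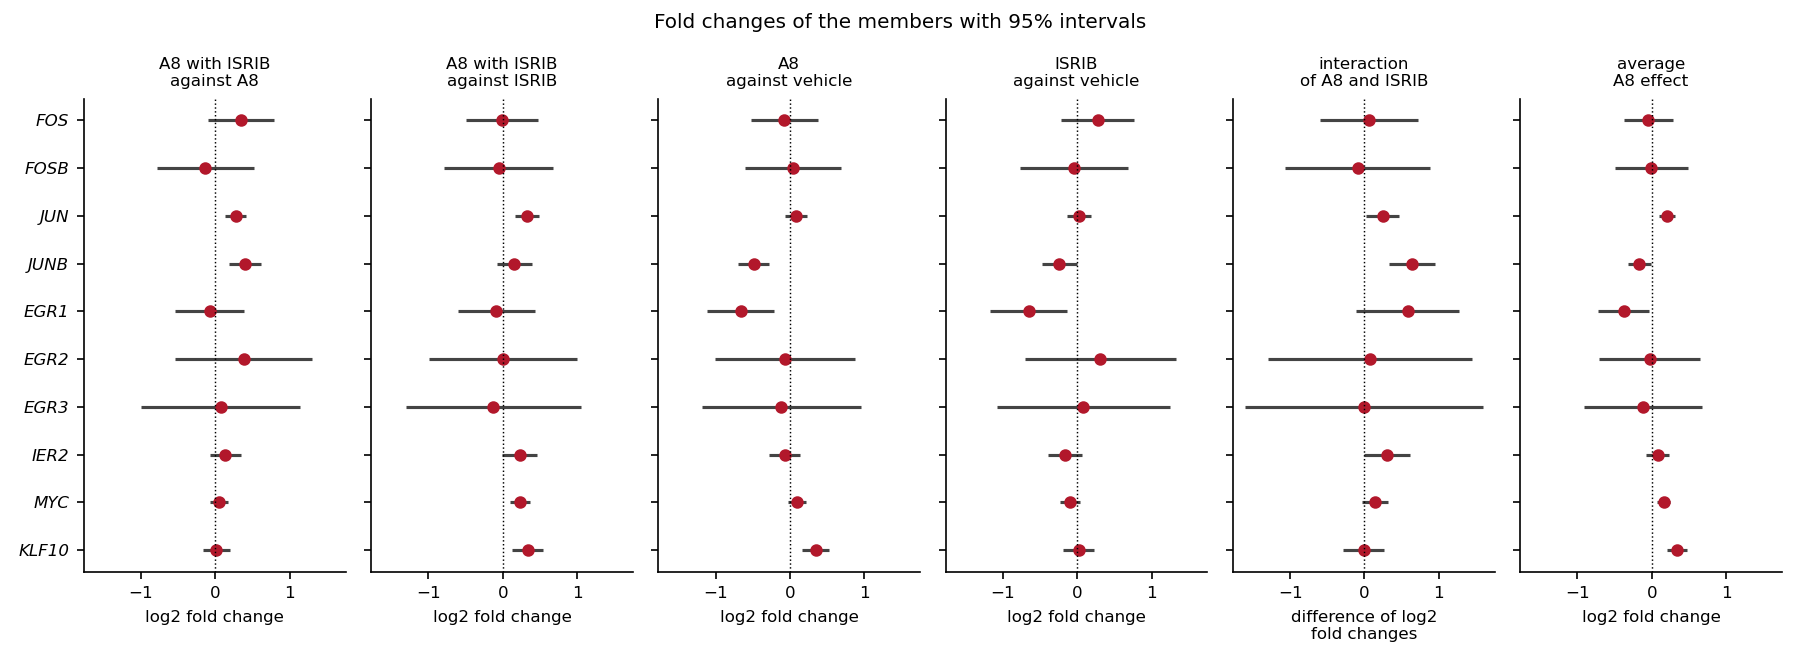
Log2 fold changes of the 10 members (points) with 95% intervals from the edgeR fit, 1 panel per comparison. The interval of KLF10 on the average A8 effect, 0.20 to 0.48, lies above 0, and the panel of A8 with ISRIB against A8 shows the values that chose the list.

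Counted over the members, the edgeR fit with the filter on low counts made no call in the 5 planned comparisons tested, while DESeq2 called members in 4 of them. DESeq2, run on all 27671 genes of the count table, called more genes than edgeR in each of the 5. Its totals stand beside its member calls. ISRIB against vehicle, the only planned comparison that shares no library with the one used to choose the list, had 5 members above 0 (50.5% of all genes) and 5 below, with a median of -0.01 against 0.002 for all genes. There, 0 of 10 were called in edgeR, against 0% of all genes, and edgeR adjusted p ran from 0.454 to 0.973. Of the members, 2 had an unadjusted p under 0.05 in edgeR (9.58% of all genes). DESeq2 called 0 members and 50 genes in all. JUNB and IER2 were lower without overlap, as were 15.1% of all genes. In A8 against vehicle 0 members were called in edgeR (0.141% of all genes) and 3 had an unadjusted p under 0.05 (10.2% of all genes). DESeq2 called KLF10 higher and JUNB lower, among 129 genes in all. KLF10 and MYC were higher without overlap (8.47% of all genes) and JUNB lower (8.13%).

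A8 with ISRIB against ISRIB gave 0 calls in edgeR (0.0128% of all genes) and 3 members with an unadjusted p under 0.05 (8.32%). DESeq2 called JUN and MYC, among 68 genes in all. JUN, IER2, MYC and KLF10 were higher without overlap, as were 12.8% of all genes. A8 with ISRIB against vehicle gave 0 calls in edgeR (0.0192%) and 4 members with an unadjusted p under 0.05 (7.7%). DESeq2 called JUN and KLF10, among 32 genes in all. Here FOS, JUN, MYC and KLF10 were higher without overlap (5.79% of all genes). For the interaction edgeR called 0 members (0.0257% of all genes) and 2 had an unadjusted p under 0.05 (8.48%). DESeq2 called JUNB, among 51 genes in all. All of these share libraries with the contrast that chose the list, apart from the comparison of ISRIB with vehicle.

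Genes around the members in the pathway were taken from 7 lists. None of their tested genes was called in edgeR in the 6 planned comparisons or on the average A8 effect. Of 18 other immediate early transcription factors tested (19 listed), 17 were above 0 in A8 with ISRIB against ISRIB (50.5% of all genes), with a median log2 fold change of 0.18 and 6 at an unadjusted p under 0.05 (8.32% of all genes). In ISRIB against vehicle 4 of the 18 were above 0 (50.5% of all genes), with a median of -0.11 and 2 at that level (9.58% of all genes). Those 2 comparisons share the ISRIB libraries, and these values stand beside medians of 0.002 for all genes in each. Spearman's rho of log2 fold change with GC content was 0.32 over all genes in A8 with ISRIB against ISRIB and -0.47 in ISRIB against vehicle. With the GC offset, a setting added for these lists after seeing the data, 16 of the 18 were above 0 with a median of 0.16 in A8 with ISRIB against ISRIB, and 5 with a median of -0.06 in ISRIB against vehicle. ID3 and ID2, dominant-negative helix-loop-helix factors chosen from the list by their counts, were at 0.25 (SE 0.07, edgeR adjusted p = 0.352) and 0.003 (SE 0.07, 0.994) in A8 with ISRIB against ISRIB.

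The 27 tested immediate early genes that are not transcription factors (28 listed) had a median of -0.08 in ISRIB against vehicle, with 9 above 0 (50.5% of all genes) and 5 at an unadjusted p under 0.05 (9.58% of all genes). Their median in A8 with ISRIB against ISRIB was 0.05, with 16 above 0 (50.5%) and 5 at that level (8.32%). With the GC offset the medians were -0.05 in ISRIB against vehicle and 0.06 in A8 with ISRIB against ISRIB. RHOB, a small GTPase, was at 0.27 (SE 0.09) and the MAP kinase phosphatase DUSP1 at 0.11 (SE 0.08) in A8 with ISRIB against vehicle, with edgeR adjusted p of 0.450 and 0.818. Upstream kinases and promoter factors (24 of 24 tested), from RAS to SRF and CREB1, had medians between -0.03 and 0.04 over the planned comparisons. At most 3 of them had an unadjusted p under 0.05 in edgeR, in the interaction, where 8.48% of all genes did.

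Among partners and readers, MAX, the obligate partner of MYC, was at 0.05 (SE 0.07, edgeR adjusted p = 0.912) in A8 with ISRIB against vehicle, and the 14 dimer partners and co-repressors had at most 1 gene at an unadjusted p under 0.05 in any comparison. The 6 mRNA decay factors also had at most 1. Of all genes, 7.7% to 10.2% were at that level in the planned comparisons other than A8 with ISRIB against A8. Of 14 textbook MYC targets, 3 were above 0 in A8 against vehicle (51.8% of all genes), with a median of -0.07 and 3 at an unadjusted p under 0.05 (10.2%). In A8 with ISRIB against A8, 12 were above 0 (49.7% of all genes, median 0.04). It was 6 in A8 with ISRIB against ISRIB (50.5%, median -0.02) and 6 in ISRIB against vehicle (50.5%, median -0.01). A8 with ISRIB against vehicle had 7 above 0, with a median of -0.01 against 0.004 for all genes. The interaction had 10, with a median of 0.06 against -0.009 for all genes. A8 with ISRIB against A8, A8 against vehicle and the interaction share the A8 libraries. NCL, the nucleolar protein nucleolin, was at -0.07 (SE 0.07, edgeR adjusted p = 0.790) and LDHA, lactate dehydrogenase A, at -0.04 (SE 0.08, 0.913) in A8 against vehicle. Of 8 textbook AP-1 targets 5 passed the filter. Above 0 were 1 in A8 with ISRIB against ISRIB (50.5% of all genes, median -0.15) and 1 in A8 with ISRIB against vehicle (median -0.19). A8 against vehicle had 2 (51.8%, median -0.14) and A8 with ISRIB against A8 had 2 (49.7%, median -0.04). ISRIB against vehicle had 2 (50.5%, median -0.01) and the interaction 2 (median -0.14). VEGFA, an angiogenic growth factor, was at 0.21 (SE 0.11, edgeR adjusted p = 0.554) and the cyclin CCND1 at -0.25 (SE 0.10, 0.416) in A8 against vehicle.

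The 5 genes outside the list whose log2 CPM followed the members' mean most closely over the 11 libraries, among the 10901 whose mean log2 CPM reached 2, were KIAA1522 with a Pearson's r of 0.91, KXD1 with 0.87, HEATR2 with 0.83, QSOX1 with 0.82 and ZBTB45 with 0.82. These values are a description of the highest of many correlations across libraries that share groups and base composition. Each member had equal weight in the mean, including EGR2, EGR3 and FOSB with at most 50 counts per library. Centred values of EGR3 ran from -0.84 to 0.68 and those of MYC from -0.20 to 0.13, so members with few counts could move the mean more.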

How the data were processed

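The members and gene lists were chosen with earlier results of these data known. RNA came from 11 libraries of HEK293T cells. Strand-specific libraries were sequenced on a DNBSEQ instrument, per the labels' protocols. The authors deposited raw counts for 27671 gene symbols, of which 6426 had 0 in every library. The genome build GRCh37 and, as tools, DESeq and DESeq2 appear in the submitters' processing notes. How reads were aligned and counted, with which annotation and strand setting, is not given in the sources used here, so reads of an overlapping or antisense transcript cannot be told apart from a member's own. The authors' deposited tables also hold base means (a normalized signal), log2 fold changes, Wald scores and p-values, per the file headers; fold changes and adjusted p-values of members are quoted.

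Counts were tested with edgeR 4.0.16 in R 4.3.3. filterByExpr left 15591 genes, libraries were scaled with TMM, and all 11 entered 1 quasi-likelihood fit of 4 group means (glmQLFit, glmQLFTest), with Benjamini-Hochberg adjustment over all genes tested and a call at an adjusted p under 0.05. Standard errors come from the F statistic, and intervals are 95%. Correlations used log2 CPM with a prior count of 2. The procedure was tested on simulated data. Replicates differed by more than sampling noise (chi-square per degree of freedom 7.21 to 36.1), so each counts as 1. GC content is that of each gene's longest GENCODE v29 transcript, known for 87.8% of the genes tested, and enters a lowess offset (span 0.3) as an alternative. DESeq2 1.42.0 (Wald test), DESeq2 size factors in place of TMM in the edgeR fit, no filter, a replicate block and leaving out each library were the others. Limits from counts of 0 cover counting error only.

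All members were named. From each other list the rule took called genes or, with none, the 2 with the highest mean CPM, and then the 5 genes most like the members' mean. Not all are printed. Promoters are RefSeq's GRCh38.p14, a build other than the counts'.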

Additional observations from a re-analysis of the deposited data

How the results depend on the processing

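All alternatives used the same counts, and causes of the changes were not tested. Genes called in edgeR were 28 for A8 with ISRIB against A8, 2 for A8 with ISRIB against ISRIB, 3 for A8 with ISRIB against vehicle, 22 for A8 against vehicle, 0 for ISRIB against vehicle (1494 at an unadjusted p under 0.05), 4 for the interaction and 37 for the average A8 effect. In the same order they were 54, 41, 40, 104, 14, 26 and 138 without the filter on low counts, and 53, 68, 32, 129, 50, 51 and 150 in DESeq2. The GC offset gave 1 for A8 with ISRIB against ISRIB, 35 for A8 against vehicle and 0 for the interaction. Leaving out each library gave 17 to 33, 0 to 13, 0 to 6, 14 to 50, 0 to 4, 0 to 6 and 10 to 103; for A8 against vehicle the 14 came without A8 library 1 or 2 and the 50 without library 3 of A8 with ISRIB.

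Among members, no filter called JUN higher in A8 with ISRIB against ISRIB (1 higher, edgeR adjusted p = 0.0320), JUN higher and EGR1 lower in A8 with ISRIB against vehicle (1 higher, 1 lower), 2 lower in A8 against vehicle (JUNB and EGR1) and 2 higher on the average effect (KLF10 and JUN). DESeq2 called 2 higher against ISRIB, 2 higher in A8 with ISRIB against vehicle, 1 higher and 1 lower in A8 against vehicle, 1 higher for the interaction and 3 higher on the average effect (KLF10, JUN and MYC). Leaving out a library gave 0 to 1 lower in A8 against vehicle, 0 to 1 higher in A8 with ISRIB against vehicle, 0 to 1 higher on the average effect, and 7 to 9 members above 0 in A8 with ISRIB against A8.

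Signs turned under the GC offset for FOSB (0.0283) and KLF10 (-0.0179) in ISRIB against vehicle and for KLF10 (0.0321) in the interaction. Leave-one-out ranges that crossed 0 were as follows. In A8 with ISRIB against A8 FOSB ran from -0.36 to 0.13, EGR1 from -0.25 to 0.05, EGR3 from -0.44 to 0.39 and KLF10 from -0.05 to 0.07. In A8 against vehicle FOS ran from -0.27 to 0.12, FOSB from -0.20 to 0.26, EGR2 from -0.37 to 0.52 and EGR3 from -0.45 to 0.35. In A8 with ISRIB against ISRIB FOS ran from -0.17 to 0.16, FOSB from -0.22 to 0.21, EGR1 from -0.26 to 0.0679, EGR2 from -0.16 to 0.21 and EGR3 from -0.64 to 0.20. In A8 with ISRIB against vehicle FOSB ran from -0.27 to 0.17, EGR3 from -0.56 to 0.43 and IER2 from -0.0119 to 0.14. In ISRIB against vehicle FOSB ran from -0.23 to 0.12, EGR3 from -0.25 to 0.55, JUN from -0.0396 to 0.10 and KLF10 from -0.0335 to 0.0887. On the average effect FOS ran from -0.14 to 0.0544, FOSB from -0.13 to 0.13, EGR2 from -0.18 to 0.27 and EGR3 from -0.38 to 0.11. In the interaction FOS ran from -0.14 to 0.26, FOSB from -0.31 to 0.17, EGR2 from -0.52 to 0.37, EGR3 from -0.53 to 0.32 and KLF10 from -0.0810 to 0.0468. In the comparisons with a test, 858 of 920 values of single members under alternatives kept their sign and 62 turned it; 810 with an adjusted p kept both sign and side of the threshold, and 21 had no adjusted p in DESeq2. Without a test, in A8 with ISRIB against A8, 151 of 160 kept their sign and 9 turned it. These counts include fits without a library of neither group compared, where the fold change can hardly move. They are therefore not a measure of how robust the signs are.

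Deviations of same-numbered libraries correlated at -0.50 to 0.42 over 9 pairs (median -0.0008). Those of libraries with other numbers correlated at -0.46 to 0.50 over 18 pairs (median 0.0005). Whether the replicate numbers pair the samples was not tested beyond these values. The replicate block could be fitted for the 9 libraries outside the ISRIB group and gave 15 genes for A8 with ISRIB against A8, 0 for A8 with ISRIB against vehicle and 15 for A8 against vehicle, with 0 members called in the last 2. EGR2, EGR3 and FOSB had at most 50 counts, which limits what their values can show.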

Other observations

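IER5, ATF3 and JUND, other immediate early genes, were chosen here after their values were seen. IER5, a regulator of heat shock factors, averaged 28.8 ± 0.835 CPM in A8 with ISRIB, 23.2 ± 0.960 in A8, 24.1 ± 1.84 in ISRIB and 29.5 ± 3.88 in vehicle cells (SD, n = 3, 3, 2 and 3). Its log2 fold change was -0.34 (SE 0.09, edgeR adjusted p = 0.197) in A8 against vehicle and 0.60 (SE 0.14, 0.251) for the interaction. ATF3, a stress-induced bZIP factor, averaged 11.6 ± 1.14 CPM in A8 with ISRIB, 15.6 ± 2.20 in A8, 10.7 ± 1.203 in ISRIB and 11.1 ± 1.33 in vehicle cells. Its 3 A8 libraries were above all others, a separation whose share over all genes was not counted. In A8 against vehicle 8.47% of all genes were higher without overlap. The log2 fold change of ATF3 was 0.48 (SE 0.12, edgeR adjusted p = 0.181) in A8 against vehicle and -0.37 (SE 0.19, 0.630) for the interaction. JUND, the JUN relative that is expressed steadily, averaged 51.9 ± 3.57 CPM in A8 with ISRIB, 44.5 ± 1.70 in A8, 40.2 ± 0.650 in ISRIB and 42.6 ± 6.87 in vehicle cells.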
